A study of Homo sapiens with 18 samples.

Results

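Mitochondrial beta-oxidation and ketone metabolism were followed through 10 genes: CPT1A, CPT2, ACADVL, ACADM, ECHS1, HADHA, HADHB, HADH, ACAT1 and ETFA. The list was chosen by the values of ACAT1 with siASAP1 and siCtrl in these libraries, and the question was whether the difference seen for ACAT1 extended to the other enzymes of fatty acid oxidation. All 10 genes were found in the table of 19289 gene symbols, each with 1 of its 21111 probes. ACAT1 and ACADVL also stood in the lipid list that the study drew from these libraries, so their values in cells with siASAP1 are given as a description without a test.

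The data came from BT549, Hs578T and SUM149PT, established cell lines grown from triple-negative breast cancers (TNBC), which lack the estrogen and progesterone receptors and amplified HER2. For each of the 3 cell lines, 3 libraries came from cells transfected with 50 nM siASAP1, a pool of siRNAs against ASAP1, and 3 from cells transfected with siCtrl, which the study's methods describe as a pool of kinase siRNAs. All 18 libraries were collected 72 h after transfection and are described as biological triplicates. TempO-Seq ligates a pair of detector oligonucleotides on each target RNA and counts the ligated product, so that each gene here was read through a short stretch of its transcript.

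Long-chain fatty acids are linked to carnitine by CPT1A at the outer mitochondrial membrane and released inside the mitochondrion by CPT2. Acyl-CoA dehydrogenases such as ACADVL (very long chains) and ACADM (medium chains) then start each round of beta-oxidation, and ETFA is a subunit of the flavoprotein that takes up their electrons. ECHS1, HADH and the trifunctional protein made of HADHA and HADHB carry out the hydratase, dehydrogenase and thiolase steps, and ACAT1 is the mitochondrial thiolase that acts in ketone body turnover and in the breakdown of isoleucine.

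By GENCODE release 29 (GRCh38), ACAT1 spans chr11:108121516-108147776 on the plus strand and CPT2 spans chr1:53196429-53214197 on the plus strand. HADHA (chr2:26190635-26244726, minus strand) and HADHB (chr2:26243170-26290468, plus strand) are read in opposite directions from neighbouring starts, with 306 bases between their first bases in RefSeq. ACADVL (chr17:7217125-7225273, plus strand) lies against DLG4 (chr17:7187169-7219841, minus strand), which in RefSeq reaches 2926 bases past the first base of ACADVL. The probe sequences were not used here, so the exon that each probe covers was not determined.

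The promoters of 3 members are shown: ACAT1, which was lower in every line, ACADVL, which had higher means, and ETFA, which had a small common Log2 FC. For ACAT1 and ACADVL, the stretch before the first of their RefSeq starts is printed. The sequences are from RefSeq (GRCh38.p14), 5′ to 3′ on the strand of the gene, and are limited to the stretch outside the exons of protein-coding genes. Capitals mark the CCAAT box (CCAAT, or ATTGG on the opposite strand), the TATA box (TATAAA, or TTTATA) and the core of the NRF1 site (TGCGCA, which reads the same on both strands).
ACAT1, chr11:108121317-108121515: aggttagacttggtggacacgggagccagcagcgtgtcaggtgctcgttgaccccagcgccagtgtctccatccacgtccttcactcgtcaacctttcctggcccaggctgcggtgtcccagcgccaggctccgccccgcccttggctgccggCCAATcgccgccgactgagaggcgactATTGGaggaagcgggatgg
ETFA, chr15:76311473-76311719, minus strand: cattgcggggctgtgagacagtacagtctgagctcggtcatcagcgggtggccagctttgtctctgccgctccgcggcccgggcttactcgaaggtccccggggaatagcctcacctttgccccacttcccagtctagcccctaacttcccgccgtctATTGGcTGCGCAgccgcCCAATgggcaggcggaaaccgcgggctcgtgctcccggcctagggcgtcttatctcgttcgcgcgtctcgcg
ACADVL, chr17:7216875-7217117: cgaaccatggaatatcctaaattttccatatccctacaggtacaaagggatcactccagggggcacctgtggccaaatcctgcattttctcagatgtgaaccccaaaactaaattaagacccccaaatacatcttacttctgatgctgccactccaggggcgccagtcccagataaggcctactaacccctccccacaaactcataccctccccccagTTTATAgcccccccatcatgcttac

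ACAT1 and ETFA each held the CCAAT box 2 times in these stretches, once in each direction. Among the 10 members, which had 13 RefSeq windows of 250 bases before a start, CCAAT was present for 3 genes (ACAT1, ETFA and HADH), beside 32% of all 35116 windows. TGCGCA was present for 2 genes (ACAT1, in the window of its second start, and ETFA), beside 6.89% of all windows. TATAAA was present for ACADVL alone, beside 10.7%, and the nuclear receptor half-site AGGTCA for none of the members, beside 12.1%. The ACADVL match lay on the opposite strand, in the window before its first start. The window before its other start (chr17:7219938) held no match. These matches describe the letters in these windows and were not tied to the measurements.

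The libraries held between 4.63 and 12.5 M reads (median 6.63 M). SUM149PT had epithelial markers (EPCAM between 18650 and 36680 normalized counts, and at most 77.8 in the other lines). CDH1, KRT17, CLDN4 and ESRP1 also had higher medians there. Of the basal keratins, KRT5 ran from 0 to 64.1 in SUM149PT. KRT14 had a median of 0 and reached 7.69 there, beside 12.8 in Hs578T. Of the mesenchymal markers, VIM, SPARC, FN1, COL1A1 and AXL had higher medians in BT549 and Hs578T, whereas CDH2 was higher in SUM149PT (1434 to 2325) than in BT549 (253 to 691). ZEB1 had a median of 0 in every line. PGR, PTPRC, CD3E, CD14 and VWF were at 3.94 normalized counts or less in every library, but PECAM1 (probe PECAM1_14079) reached 103 and ESR1 (probe ESR1_12234) 191 in SUM149PT, beside at most 46.9 and 13.1 in the other lines. The other probes of these genes, PECAM1_5057 and ESR1_2235, were at 0 in every library. ERBB2 reached 138.5 in SUM149PT, 80.3 in BT549 and 75.9 in Hs578T. ASAP1 itself had a common Log2 FC of -0.96 (SE 0.314, adjusted p = 0.127 in limma, Benjamini-Hochberg adjusted), and 7 of 9 siASAP1 libraries lay below the lowest siCtrl library of their line. The library labelled SUM149PT siCtrl replicate 2 had 189 normalized counts of ASAP1, as low as its siASAP1 libraries (184 to 468), beside 1087 and 1314 in the other siCtrl libraries of SUM149PT. It also lay farthest out on the main axis of spread between replicates (score 1.346), so the main results of SUM149PT are also given without it. Without it, the common Log2 FC of ASAP1 was -1.20 (adjusted p = 0.0187 in limma).

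ACAT1 was lower with siASAP1 in all 3 cell lines. In BT549, its normalized counts (reads divided by the size factor of the library) were 1228, 1131 and 679 with siASAP1, and 4280, 1873 and 2332 with siCtrl. In Hs578T they were 1575, 1763 and 1137 with siASAP1, and 3269, 3183 and 2758 with siCtrl. In SUM149PT they were 437, 297 and 235 with siASAP1, and 1055, 907 and 1079 with siCtrl. In every line the 3 siASAP1 libraries lay below the 3 siCtrl libraries, and the library labelled SUM149PT siCtrl replicate 2, at 907, sat with the other siCtrl libraries for this gene.

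Of the siCtrl mean of ACAT1, 35.8% was left with siASAP1 in BT549, 48.6% in Hs578T and 31.9% in SUM149PT. These correspond to a Log2 FC of -1.44 (SE 0.412), -1.06 (SE 0.251) and -1.69 (SE 0.397). In the fit of all 18 libraries, which adjusted for the cell line, it was -1.40 (SE 0.196). Without the library labelled SUM149PT siCtrl replicate 2 the value was -1.77 in SUM149PT and again -1.40 over the 3 lines. In bulk RNA of a culture, fewer cells that express a gene and less RNA of it per cell cannot be told apart.

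**Figure D1:**
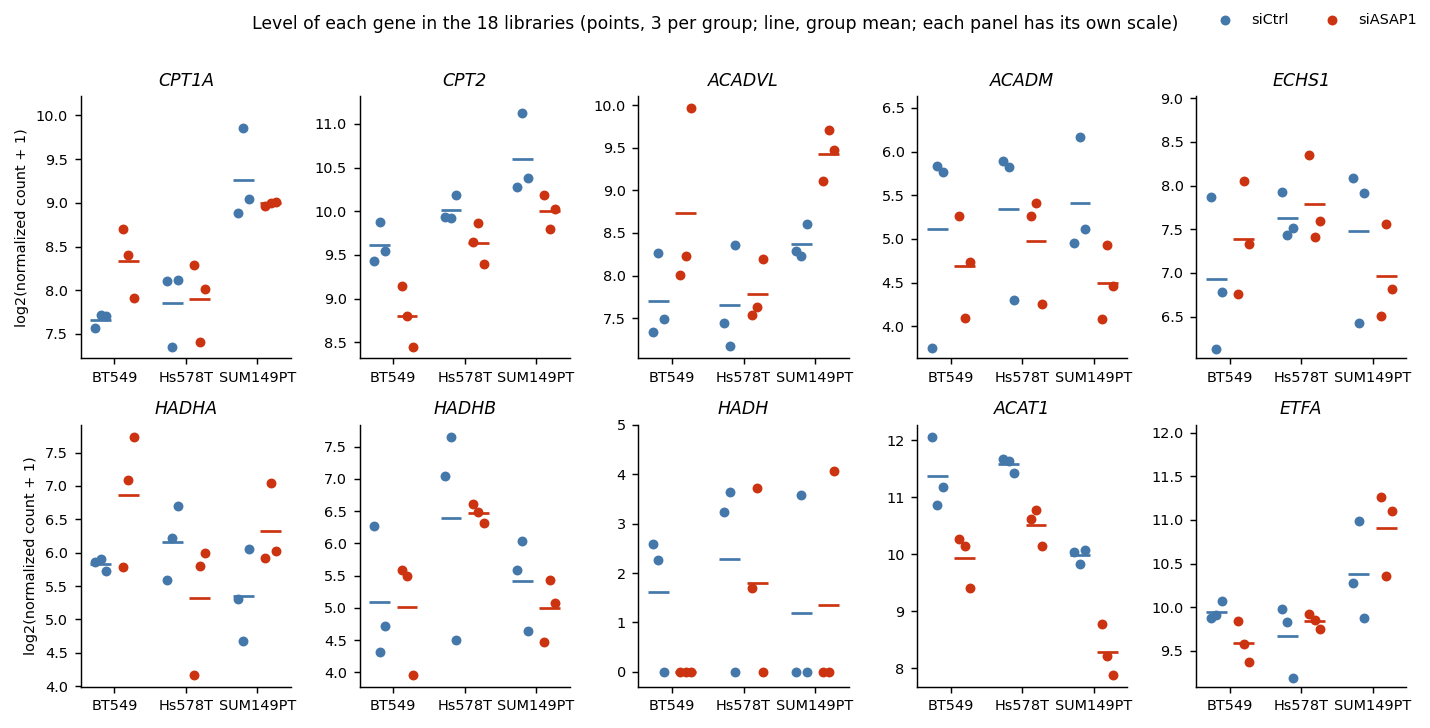
Deposited values, log2 of the normalized count plus 1 (y axis), of the 10 genes in each library by cell line (x axis), with siCtrl in blue and siASAP1 in red; points are libraries and lines are means of 3 libraries, and each panel has its own scale. For ACAT1 and CPT2 all 9 siASAP1 libraries lie below the siCtrl libraries of their line, and HADH was not read in 10 of 18 libraries.

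CPT2, which regenerates acyl-CoA inside the mitochondrion, was the other member whose groups did not overlap in any line. In BT549 it had 564, 444 and 349 normalized counts with siASAP1, and 688, 943 and 747 with siCtrl. In Hs578T it had 803, 934 and 671 with siASAP1, and 974, 969 and 1163 with siCtrl. In SUM149PT it had 1167, 890 and 1041 with siASAP1, and 1244, 2228 and 1330 with siCtrl, of which the highest was the library labelled SUM149PT siCtrl replicate 2.

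All 9 siASAP1 libraries had less CPT2 than the lowest siCtrl library of their own line. Of the 7 members other than HADH, ACAT1 and ACADVL, CPT2 alone had this pattern in all 3 lines, beside 0.776% of the 7990 probes tested in every line. ACAT1 had it too but is not counted, because the list was chosen by its values. None of the 7 lay above siCtrl in all 3 lines (0.35% of these probes). The margin was narrow in Hs578T (934 against 969) and in SUM149PT (1167 against 1244), and the means with siASAP1 were 57.1%, 77.6% and 64.5% of siCtrl in BT549, Hs578T and SUM149PT.

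BT549 had a Log2 FC of -0.82 (SE 0.366) for CPT2, Hs578T -0.37 (SE 0.255) and SUM149PT -0.59 (SE 0.384), so that no line passed an absolute Log2 FC of 1. The common Log2 FC was -0.60 (95% interval -0.94 to -0.25), with an adjusted p of 0.0687 in limma, above the threshold of 0.05. With a minimum mean normalized count of 50 in place of 10, the adjusted p was 0.0488, and over the other alternative settings it reached 0.234. Without the library labelled SUM149PT siCtrl replicate 2 the common Log2 FC was -0.52 (adjusted p = 0.0997), and that in SUM149PT alone was -0.33. CPT2 moved with the main axis of spread between replicates (r = 0.78 over 18 libraries, as a description), whereas ACAT1 did not (r = 0.01); the part of that axis in the CPT2 values was not tested.

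CPT1A, the enzyme that CPT2 follows and a rate-controlling step of the pathway, did not share this pattern. In BT549 it had 416, 337 and 239 normalized counts with siASAP1, above 188, 209 and 208 with siCtrl, and the groups did not overlap. In Hs578T (168 to 312 against 162 to 276) the groups overlapped. In SUM149PT the siASAP1 libraries lay between 500.1 and 516, and the siCtrl libraries at 471, 928 and 528.

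For CPT1A, BT549 had a Log2 FC of 0.67, Hs578T 0.05 and SUM149PT -0.27, and the last value became 0.03 without the library labelled SUM149PT siCtrl replicate 2. The common Log2 FC was 0.15 (95% interval -0.29 to 0.60, adjusted p = 0.797 in limma). In the interaction test of limma the lines were not told apart either (interaction adjusted p = 0.963).

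ACADVL, the dehydrogenase of very long chains, had higher means with siASAP1. In SUM149PT its normalized counts were 552, 836 and 707 with siASAP1, above 312, 299 and 387 with siCtrl, without overlap. In BT549 they were 255, 300.2 and 996 with siASAP1, and 161, 307 and 178 with siCtrl, so that a single library carried most of the difference. In Hs578T the values ran from 185 to 292 with siASAP1 and from 143 to 328 with siCtrl.

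The Log2 FC of ACADVL was 1.04 in BT549, 0.13 in Hs578T, 1.06 in SUM149PT and 0.74 (SE 0.274) over the 3 lines. Leaving out 1 library at a time moved the value in BT549 between 0.42 and 1.40 and that in Hs578T between -0.11 and 0.48. Its neighbour DLG4 had a common Log2 FC of 0.13 (adjusted p = 0.851 in limma, probe DLG4_19264).

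ACADM, which acts on medium chains, was read at low level, with 10 to 89 reads per library. In SUM149PT it had 15.9, 29.5 and 21.0 normalized counts with siASAP1, just below 30.0, 71.1 and 33.6 with siCtrl. The groups overlapped in BT549 (up to 37.3 against 12.5 to 56.0) and in Hs578T (18.1 to 41.6 against 18.7 to 58.2). The Log2 FC was -0.42, -0.36 and -0.92 in BT549, Hs578T and SUM149PT (-0.54 in SUM149PT without its siCtrl replicate 2), and the common value of -0.57 had a 95% interval from -1.36 to 0.22 (adjusted p = 0.503 in limma).

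ETFA, the electron acceptor subunit, had among the smallest spreads between replicates (SD 0.363 on the log2 scale). In BT549 it had 916, 765 and 660 normalized counts with siASAP1, below 936, 959 and 1072 with siCtrl. In SUM149PT the direction was the opposite, with 2446, 1309 and 2189 against 1236, 2024 and 940, and there the groups overlapped. The Log2 FC was -0.35 in BT549, 0.18 in Hs578T, 0.52 in SUM149PT (0.83 without its siCtrl replicate 2), with a common value of 0.12 (95% interval -0.29 to 0.53, adjusted p = 0.834 in limma). ETFA followed the axis of spread between replicates more closely than the other members (r = 0.90).

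HADHA and HADHB encode the alpha and beta subunits of the mitochondrial trifunctional protein. HADHA had 54.2, 135 and 213 normalized counts with siASAP1 and 57.4, 59.1 and 51.9 with siCtrl in BT549. In Hs578T it had 17.0, 54.9 and 62.9 with siASAP1 and 47.3, 73.4 and 102 with siCtrl, and in SUM149PT 59.5, 131 and 64.4 against 38.6, 24.6 and 65.5. The groups overlapped in each line, with higher means with siASAP1 in BT549 and SUM149PT and a lower mean in Hs578T.

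The Log2 FC of HADHA was 1.04, -0.84 and 0.98 in BT549, Hs578T and SUM149PT (0.65 without its siCtrl replicate 2), and the common value was 0.39 (95% interval -0.43 to 1.21, adjusted p = 0.693 in limma). This spread of directions did not pass the interaction test of limma (adjusted p = 0.857). HADHB, with 15 to 246 reads, had a common Log2 FC of -0.15 (95% interval -1.03 to 0.73, adjusted p = 0.909). Its siCtrl libraries of Hs578T alone ran from 21.7 to 201 normalized counts, around siASAP1 libraries at 78.9 to 96.3.

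ECHS1, the short-chain hydratase, overlapped between siASAP1 and siCtrl in all 3 lines. Its normalized counts ran from 108 to 264 with siASAP1 and 69.2 to 232 with siCtrl in BT549, from 169 to 326 and 172 to 242 in Hs578T, and from 90.0 to 187 and 84.7 to 272 in SUM149PT. The common Log2 FC was 0.03 (95% interval -0.61 to 0.67, adjusted p = 0.973 in limma). It became -0.077 without the library labelled SUM149PT siCtrl replicate 2, which left -1.04 in SUM149PT (adjusted p = 0.216 in limma), and -0.0535 after a correction for GC content that was added after the data were seen.

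HADH, the dehydrogenase of short chains, could not be compared. Its probe was not read in 10 of 18 libraries, including the 3 siASAP1 libraries of BT549, and reached at most 21 reads (15.8 normalized counts). In the libraries at 0, a count of 0 allows up to 3 reads by counting error alone, worth 2.1 to 4.8 normalized counts. Replicates differed by more than this, with 0, 0 and 12 reads in the siASAP1 libraries of SUM149PT, so the level of a group is not bounded by it. HADH did not reach the mean normalized count of 10 needed for testing in any fit, which left 9 of the 10 members.

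**Figure D2:**
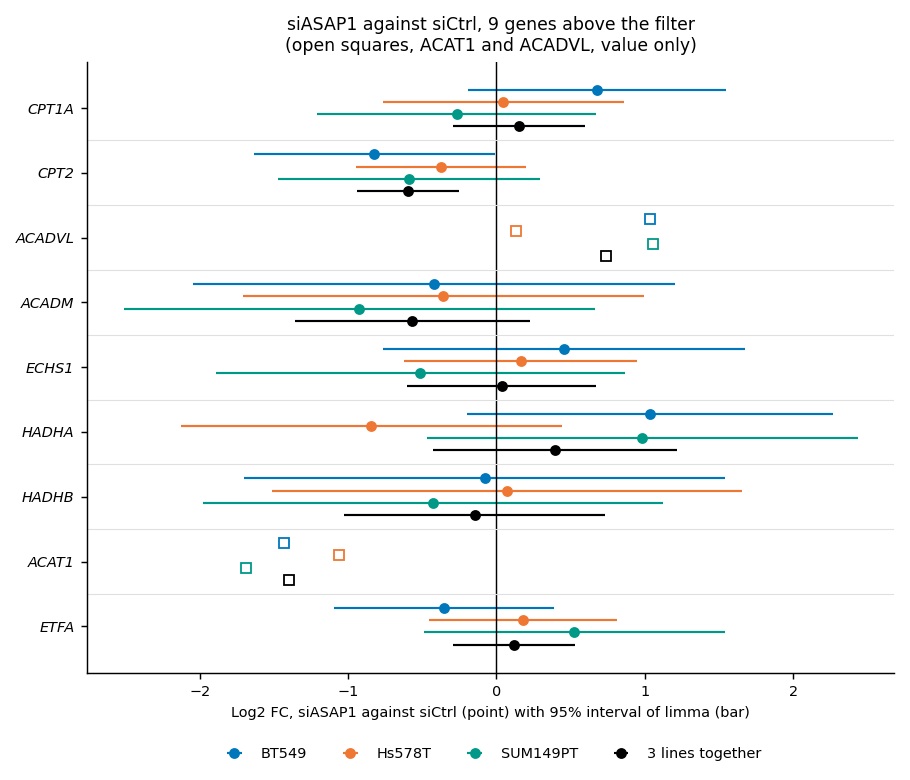
Log2 FC of siASAP1 against siCtrl (x axis) for the 9 members above the filter on low counts (y axis), in each cell line (colors, 6 libraries each) and over the 3 lines together (black, 18 libraries); bars are 95% intervals of limma, and open squares give ACAT1 and ACADVL as values only. The interval of CPT2 lies below 0 over the 3 lines (-0.94 to -0.25) and in BT549, and those of ACADM, ECHS1, HADHA, HADHB, ETFA and CPT1A include 0 throughout.

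Calls were counted over the 7 members other than HADH, which was not tested, and ACAT1 and ACADVL, which are described only. By the limits of the study (unadjusted p under 0.05 and absolute Log2 FC over 1), 0 of 7 were lower in BT549, where 3.69% of all 9666 probes tested were, and 0 were higher (3.28% of all probes). In Hs578T, 0 of 7 were lower (1.44% of 9500 probes) and 0 higher (1.34%). In SUM149PT, 0 of 7 were lower (4.29% of 10078 probes) and 0 higher (5.27%), and the same counts were found without the library labelled SUM149PT siCtrl replicate 2, where 8.94% of 9953 probes were lower and 14.4% higher. With the GC correction CPT2 just met the limits in BT549 (Log2 FC -1.0004).

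No probe in any line had an adjusted p under 0.05 in limma (0 of all probes, 0%, while 754 in BT549, 502 in Hs578T and 1025 in SUM149PT had an unadjusted p under 0.05), and so none of the 7 members did. Without the library labelled SUM149PT siCtrl replicate 2, 107 probes (1.08%) had an adjusted p under 0.05 in SUM149PT, and the lowest of the 7 members was 0.212. In the fit over 18 libraries, 1.74% of 10475 probes did (182 probes), 1.06% with lower and 0.678% with higher values. Of the 7 members, 0 passed, and 1 (CPT2) had an unadjusted p under 0.05, beside 15.8% of all probes. The median common Log2 FC over the 7 members was 0.03, and over all probes 0.02.

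Groups that did not overlap were also counted. In BT549, CPT2 and ETFA lay below siCtrl (2 of 7, against 6.51% of all probes) and CPT1A above it (1 of 7, against 7.35%). In Hs578T, CPT2 lay below (1 of 7, against 5.78%) and none above (6.31%). In SUM149PT, CPT2 and ACADM lay below (2 of 7, against 8.41%) and none above (8.87%). Without the library labelled SUM149PT siCtrl replicate 2, ECHS1 joined CPT2 and ACADM below (3 of 7, against 21.4%) and ETFA lay above (1 of 7, against 23.3%).

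The effect of siASAP1 did not pass the test of a difference between the cell lines for any of the 7 members. The interaction test of limma gave them adjusted p-values of 0.857 or more, and 0.00955% of 10475 probes (1 probe) had an adjusted p under 0.05. Without adjustment 652 probes, or 6.22%, had p under 0.05, and none of them belonged to the 7 members. Without the library labelled SUM149PT siCtrl replicate 2 there were 26 probes (0.25%) with an adjusted interaction p under 0.05, and the lowest of the 7 members was 0.294.

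Levels of the members in the 9 siCtrl libraries do not use the comparison with siASAP1. For ACAT1, however, these siCtrl values were among those by which the list was chosen. ACAT1 was lowest in SUM149PT, with a mean of 1014 ± 93.0 normalized counts (SD, n = 3), beside 2828 ± 1278 in BT549 and 3070 ± 274 in Hs578T. The log2 difference was -1.39 from BT549 (SE 0.343, adjusted p = 0.018 in limma) and -1.60 from Hs578T (adjusted p = 0.00821). They were -1.31 (adjusted p = 0.0175) and -1.52 (adjusted p = 0.00967) without the library labelled SUM149PT siCtrl replicate 2. With a correction for GC content, chosen after the data were seen, the first of these was -1.10 (adjusted p = 0.105). BT549 and Hs578T, the neighbours in this order, differed by 0.21 (95% interval -0.56 to 0.97).

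CPT1A was highest in SUM149PT, the line where ACAT1 was lowest, with 642 ± 250 normalized counts (SD, n = 3), beside 202 ± 11.6 in BT549 and 237 ± 65.8 in Hs578T. The log2 difference was 1.60 from BT549 (SE 0.382, adjusted p = 0.0151 in limma) and 1.41 from Hs578T (adjusted p = 0.0269). Without the library labelled SUM149PT siCtrl replicate 2 these became 1.30 (adjusted p = 0.0142) and 1.11 (adjusted p = 0.0294), and with the GC correction the second was 1.39 (adjusted p = 0.0551).

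**Figure D3:**
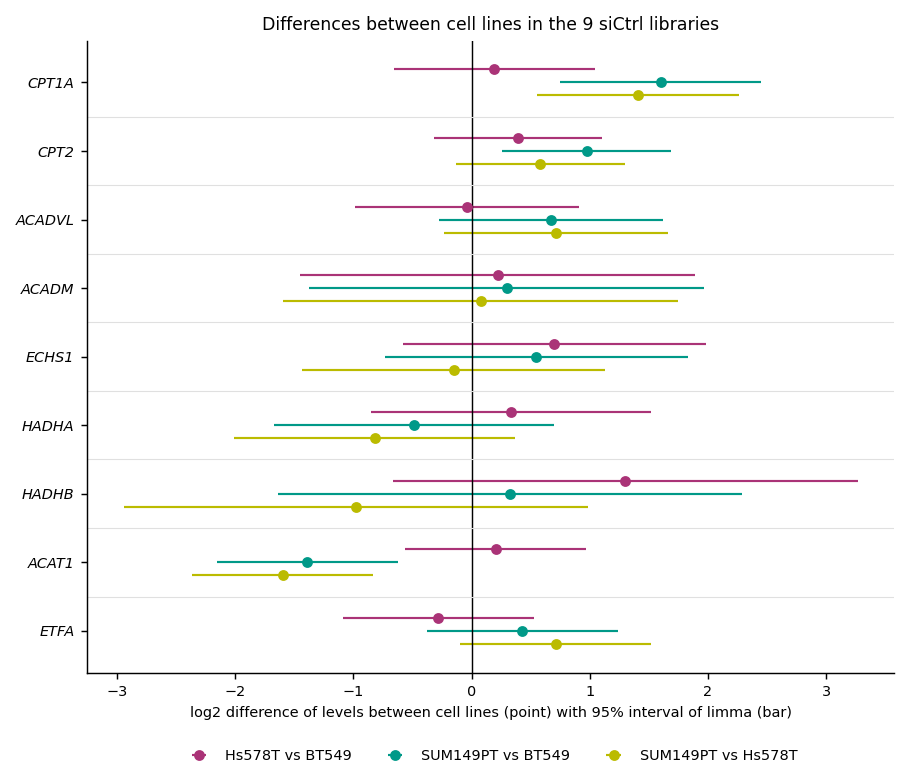
Log2 difference between cell lines in the 9 siCtrl libraries (x axis, point) with the 95% interval of limma for the 9 members tested (y axis), for the 3 pairs of lines (colors). SUM149PT is apart from both other lines for ACAT1 (-1.39 and -1.60) and for CPT1A (1.60 and 1.41), and the intervals of Hs578T against BT549 include 0 for each member.

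CPT2 was also higher in SUM149PT than in BT549 by 0.98, which did not pass (adjusted p = 0.0629 in limma, or 0.71 with 0.0505 without the library labelled SUM149PT siCtrl replicate 2). In all, 2 of 9 members differed between SUM149PT and BT549, where 18.2% of 10255 probes did, and 2 of 9 between SUM149PT and Hs578T, where 20.2% did. Between Hs578T and BT549, 0 of 9 differed, beside 13.9% of all probes. The other 6 members had log2 differences between -0.98 (HADHB, SUM149PT against Hs578T) and 1.30 (HADHB, Hs578T against BT549), and none of these passed.

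With siASAP1, the level of ACAT1 in SUM149PT (323 ± 103 normalized counts, SD, n = 3) was below that in BT549 (1013 ± 293) and in Hs578T (1492 ± 322). The means of BT549 with siASAP1 and of SUM149PT with siCtrl were thus close (1013 and 1014 normalized counts). Levels of different genes are not compared here, because each gene was read by 1 probe and the yield of a probe differs between genes.

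The probes whose values followed ACAT1 most closely were those of PABPC1 (Pearson r = 0.94), LCLAT1 (0.92), MIPEP (0.92), CSE1L (0.92) and ATPAF1 (0.91). These are correlations over the 18 libraries after the mean of each cell line was subtracted, among 10474 other probes, and the 18 points share the contrast of siASAP1 with siCtrl. Among the members, CPT2 had r = 0.73 with ACAT1, ACADVL -0.79, HADHA -0.42, and the other 5 lay between -0.18 and 0.30. NPAT, which ends 9611 bases from the end of ACAT1, had a common Log2 FC of -0.18 (adjusted p = 0.859 in limma).

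Around these 10 genes, 7 lists of related genes were examined, 105 genes in all, of which 79 were tested over the 3 lines with 83 probes. None of the 83 probes had an adjusted p under 0.05 in the fit over 18 libraries, beside 1.74% of all probes. The medians of the lists ran from -0.33 (ketone body enzymes) to 0.32 (regulators of fatty acid oxidation), beside 0.02 over all probes.

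**Figure D4:**
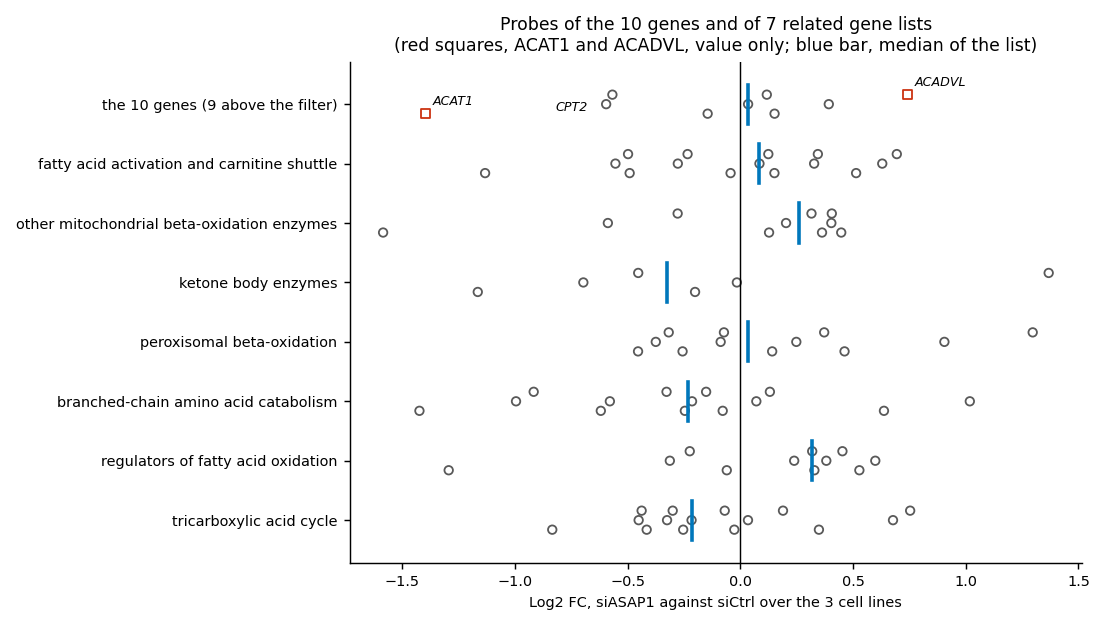
Common Log2 FC of siASAP1 against siCtrl over the 3 cell lines (x axis) for each probe of the 10 genes and of the 7 lists (y axis); red squares give ACAT1 and ACADVL as values only, and blue bars are medians. None of the 83 probes of the lists had an adjusted p under 0.05 in limma, and every list has probes on both sides of 0.

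Among the enzymes of ketone bodies, 0 of 6 probes tested passed over the 3 lines. ACAT2, the cytosolic counterpart of ACAT1 that feeds sterol synthesis, had the lowest value there, with a common Log2 FC of -1.17 (adjusted p = 0.0805 in limma). It had -1.46 in BT549, where it met the limits of the study, -0.96 in Hs578T and -1.07 in SUM149PT (-0.60 without its siCtrl replicate 2), and 7 of 9 siASAP1 libraries lay below the lowest siCtrl library of their line. OXCT1, which activates acetoacetate for use in the mitochondrion, was lower in SUM149PT (-1.29, or -1.50 without its siCtrl replicate 2; 132 to 230 normalized counts against 342 to 628) and -0.70 over the 3 lines (adjusted p = 0.146). BDH2, a hydroxybutyrate dehydrogenase, was lower in BT549 (-1.17) and had 0.27 in Hs578T.

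Among fatty acid activation and the carnitine shuttle, 0 of 15 probes passed over the 3 lines. CPT1C, a CPT1 form best known from neurons, was lower in Hs578T by the limits of the study with the probe CPT1C_25393 (Log2 FC -1.65, 52.3 to 152 normalized counts against 225 to 313). The other probe, CPT1C_27055, was not tested in Hs578T and had a common Log2 FC of 0.69, beside -0.50 for the first. ACSL5, an acyl-CoA synthetase, was higher in Hs578T (1.38, 92.5 to 122 against 29.5 to 53.0) and had -0.94 in SUM149PT. SLC22A5, the carnitine transporter of the cell membrane, was lower in BT549 with the probe SLC22A5_6383 (-1.21), which had 1.19 in SUM149PT and met the limits there only without its siCtrl replicate 2 (1.85). Its other probe, SLC22A5_20170, had 0.21 and 0.74 in these lines.

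Among the other mitochondrial beta-oxidation enzymes, 0 of 10 probes passed over the 3 lines, and HSDL2 was lower in BT549 (-1.02). In the peroxisome, which shortens very long chains by a separate set of enzymes, 0 of 12 probes passed. There SCP2, a sterol carrier with a thiolase form, was lower in BT549 with the probe SCP2_27826 (-1.43, 235 to 827 normalized counts against 1179 to 1409), beside -0.30 with SCP2_6152. The probe SCP2_27826 had -0.37 in Hs578T and 0.44 in SUM149PT. ACOX3, an acyl-CoA oxidase, was higher in SUM149PT (2.48, or 2.66 without its siCtrl replicate 2), at low counts (26.3 to 60.3 against 2.86 to 9.59), and had a common Log2 FC of 1.30 (adjusted p = 0.0866 in limma).

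Breakdown of branched-chain amino acids shares ACAT1 with ketone metabolism, and 0 of its 14 probes passed over the 3 lines. BCKDHB, a subunit of the branched-chain ketoacid dehydrogenase, was lower in BT549 (-1.52). It had -0.72 in Hs578T and 0.39 in SUM149PT (1.34 without its siCtrl replicate 2). BCAT1, the cytosolic branched-chain transaminase, was lower in SUM149PT (-1.17, 492 to 511 normalized counts against 903 to 1506), and without siCtrl replicate 2 it no longer met the limits (-0.97). ALDH6A1, a dehydrogenase of the valine pathway, was also lower there (-1.23, or -1.54 without that library) and had -0.92 over the 3 lines (adjusted p = 0.094 in limma).

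Of the tricarboxylic acid cycle, 0 of 15 probes passed over the 3 lines. SUCLG1, the alpha subunit of succinyl-CoA ligase, was lower in SUM149PT (-1.49, or -1.69 without its siCtrl replicate 2, with 269 to 595 normalized counts against 887 to 1403) and had -0.83 over the 3 lines (adjusted p = 0.0772 in limma). Its partner subunit SUCLA2 was higher in SUM149PT (1.37, or 1.68 without that library), and IDH3B, a subunit of isocitrate dehydrogenase, was higher in BT549 (1.27). Of the regulators of fatty acid oxidation, among them PPARA, PPARGC1A and PRKAA1 (a catalytic subunit of the AMP-activated kinase), 0 of 11 probes passed over the 3 lines or met the limits of the study in a line with all libraries. PPARD, ESRRA and PRKAA2 did not reach the mean count needed for testing.

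Over the 7 lists together, the limits of the study called 6 probes lower and 1 higher of 74 in BT549, where 3.69% and 3.28% of all probes were called. They called 1 lower and 1 higher of 76 in Hs578T (1.44% and 1.34% of all probes) and 4 lower and 2 higher of 80 in SUM149PT (4.29% and 5.27%). Without its siCtrl replicate 2, SUM149PT had 7 lower and 6 higher of 78, beside 8.94% and 14.4% of all probes. With all libraries, none of the genes named from these lists met the limits in more than 1 cell line.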

How the data were processed

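TempO-Seq values of 18 libraries, 6 per cell line, were analysed. The authors assigned reads to 21111 probes (the labels name bcl2fastq, Bowtie and DESeq2, and the genome build is not given in the sources used here), divided the counts by a DESeq2 size factor and deposited log2 of these normalized counts plus 1. Replicates were not pooled. Reads were recovered as whole numbers for 100% of values (tolerance 0.01 reads). Depth was 4.63 to 12.5 M reads per library, and intervals from counts cover counting error only.

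The limma package (3.58.1, R 4.3.3) was used with a mean-variance trend, on probes that averaged 10 or more normalized counts over the libraries fitted. Separate fits were made for the 6 libraries of a cell line, for all 18 libraries with cell line as covariate (common effect) or as an interaction (difference between lines), and for the 9 siCtrl libraries (levels between lines). Fold changes are on the scale of log2(normalized count + 1), which understates changes of low genes. Adjusted p-values are Benjamini-Hochberg values over all probes of a fit. An exact permutation test of 3 libraries against 3 cannot give a two-sided p below 0.1 and was not used.

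The members and the gene lists were chosen with earlier results of these data known. Named were the 10 members, ASAP1, ACAT2, NPAT and DLG4, each gene of the 7 lists that met the study limits in a line or had a common adjusted p under 0.05, and the 5 probes most like ACAT1. Other settings tried were scaling by TMM or by library totals, no filter, a minimum of 50, voom weights on the recovered reads, a pseudocount of 10, a replicate block, a joint fit of the 18 libraries, and leaving out each library. Correction for GC content in 20 bins, alone and with the block, was an addition made once results were known. GC values came from GENCODE release 29 transcripts (97.2% of symbols matched). Figures used Python 3.11.15 and matplotlib 3.10.9.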

Additional observations from a re-analysis of the deposited data

How the results depend on the processing

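The common Log2 FC of ACAT1 stayed negative in every setting, from -1.42 to -1.27 over the alternatives and from -1.46 to -1.29 when each library was left out. It was -1.40 with the replicate block. The list was chosen by the values of ACAT1 in these same libraries, so these ranges describe its difference and do not test it. Correlations between same-numbered libraries ran from -0.647 to 0.352. They were negative in SUM149PT (-0.647 to -0.318), mixed in BT549 (-0.35 to 0.109) and positive in Hs578T (0.099 to 0.352). Whether the replicate numbers pair the samples was not settled. The block left the counts of calls among the 7 tested members as they were.

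GC correction gave 1 of the 7 (CPT2) called lower in BT549, also with the block (1), and 1 member in place of 2 differing between SUM149PT and each other line (1 and 1). There ACAT1 against BT549 had -1.10 (adjusted p = 0.105 in limma) and CPT1A against Hs578T 1.39 (0.0551). A minimum of 50 gave 1 of the 7 (CPT2) with a common adjusted p under 0.05. Leaving out single libraries gave 0 to 1 of the 7 higher in BT549 (1 without siASAP1 replicate 1), and 1 to 2 members differing between SUM149PT and each other line (BT549, 1 to 2; Hs578T, 1 to 2). Against BT549, ACAT1 lost its call without SUM149PT siCtrl replicate 1 (adjusted p = 0.0541 in limma) and CPT1A without BT549 siCtrl replicate 3 (0.0547). Against Hs578T, CPT1A lost it without SUM149PT siCtrl replicate 3 (0.0513), Hs578T siCtrl replicate 1 (0.0604) or Hs578T siCtrl replicate 2 (0.112). In the lists, 1 probe had a common adjusted p under 0.05 without BT549 siASAP1 replicate 1 (ACAT2, 0.0409), 1 of the branched-chain list without Hs578T siASAP1 replicate 2, and 1 of the tricarboxylic acid cycle without BT549 siCtrl replicate 2. With all libraries and no filter on low counts, 1 probe of the ketone body list, not that of ACAT2, also had a common adjusted p under 0.05.

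Small values changed sign. HADHB had 0.10 in BT549 with voom weights and -0.0018 in Hs578T with a pseudocount of 10, ECHS1 a common value of -0.0535 with GC correction, alone or with the block, and CPT1A -0.0036 between Hs578T and BT549 by library totals. With a library left out, Log2 FC ranged from -0.88 to 0.0018 (ACADM), -0.21 to 0.30 (CPT1A), -0.12 to 0.35 (ECHS1), -0.0571 to 0.33 (ETFA) and -0.88 to 0.70 (HADHB) in Hs578T, from -0.47 to 0.51 in BT549 (HADHB), and from -0.46 to 0.0317 in SUM149PT (CPT1A). Common values ranged from -0.11 to 0.16 (ECHS1), -0.43 to 0.0187 (HADHB) and -0.40 to 0.0336 (NPAT). Between Hs578T and BT549 they ranged from -0.46 to 0.74 (ACADM), -0.39 to 0.25 (ACADVL) and -0.0453 to 0.55 (ACAT1). Between SUM149PT and BT549 they ranged from -0.38 to 0.65 (ACADM) and -0.0681 to 0.91 (HADHB), and between SUM149PT and Hs578T from -0.44 to 0.35 (ACADM) and -0.46 to 0.37 (ECHS1). The cause was not tested. HADH was left untested, with 0 reads in 10 of 18 libraries, and ACADM, HADHA and HADHB had 10 to 15 reads in their lowest libraries.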

Other observations

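The main axis of spread between replicates held 42.5% of the variance within the 6 groups, and the members lay along it unevenly. Over the 18 libraries, as a description, the correlation with this axis was 0.90 for ETFA, 0.78 for CPT2, 0.55 for ACADM, 0.40 for CPT1A and 0.30 for HADHB. ECHS1 (-0.77), HADHA (-0.69) and ACADVL (-0.43) lay on its other side, and ACAT1 was near 0 (0.01). The libraries farthest out were the library labelled SUM149PT siCtrl replicate 2 (score 1.346), SUM149PT siASAP1 replicate 2 (-0.901) and BT549 siASAP1 replicate 1 (0.827). The GC content of the transcripts of the members ran from 40.7% (ACADM) to 60.3% (ECHS1), and what the axis stands for was not tested.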
